A study of Mus musculus with 7 samples.

Results

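The actin and tropomyosin genes were followed in C2C12 cells, an established mouse myoblast line whose cells fuse into myotubes once serum is lowered, on day 2 of differentiation. The members were 10 genes, 6 actins (Acta1, Actc1, Acta2, Actg2, Actb and Actg1) and 4 tropomyosins (Tpm1 to Tpm4), and they were found by gene symbol in a deposited table of 11642 rows, where all 10 were listed. Total RNA was sequenced from 4 samples. In 2 of them the cells received a scramble control siRNA (si-SCR), and in 2 siRNA #1 against the long non-coding RNA lnc-SMaRT (si-SMaRT). The paper describes 2 independent populations for these treatments, without saying whether each was split between them. All 4 came from the unmodified line, the knockdown rested on 1 siRNA sequence, and p-values measure only the spread between these samples. The series also holds a pull-down of lnc-SMaRT (probe set #1), a LacZ pull-down as its control and their input, with 1 library for each, so the peak lists have no replicate check.

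Actin monomers assemble into filaments, which form the thin filaments of the sarcomere in muscle and the stress fibres and cell cortex in all cells. Tropomyosins are coiled-coil dimers that lie along these filaments and set which other proteins, myosin among them, can reach the actin. When myoblasts differentiate, the cytoplasmic actins encoded by Actb and Actg1 classically give way to the sarcomeric actins encoded by Actc1 and Acta1, and the short cytoskeletal tropomyosins to the long muscle forms.

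Values are RPKM, reads scaled to the length of the gene and to the number of reads in the library, so that levels can be compared between genes. Reads worked out from these values summed to between 10958840 and 14282334 per sample, and each member rested on between 261 reads (Actg2 in si-SCR 1) and 68221 reads (Acta2 in si-SCR 2). The targeted RNA, listed as Lnc-SMaRT, was at 19.1 and 15.9 RPKM in the si-SCR samples and at 2.88 and 3.65 RPKM in the si-SMaRT samples, a log2 fold change of -2.39 ± 0.28 (SE, limma, adjusted p = 0.000882). All 7 markers of differentiating skeletal muscle cells were listed. Of the smooth muscle markers Smtn, Lmod1, Cnn1 and Synm were listed, at 18.8 RPKM or less, and Myh11, Myocd and Hhip were not. Of 4 endothelial and 4 blood markers only Cd68 was listed, at 1.13 RPKM or less. The 2 si-SMaRT samples stood apart from each other along GC content. Across 10552 genes, the log2 difference between them had a Spearman rho of -0.844 with the GC content of the exons. The rho was 0.354 for the 2 si-SCR samples, and genes rich in GC were lower in si-SMaRT 2. In the paper's read counts, the rRNA and tRNA filter removed a far larger part of si-SMaRT 1 than of any other sample.

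In 3 actin genes the promoters carried a CArG box, the DNA element bound by serum response factor (SRF), which drives many actin genes. In RefSeq windows from 250 bases before to 50 bases after the gene start (GRCm38.p6), 8 of the 10 members (not Actb and Actg2) had an entry, and Actc1, Acta1 and Actg1 each held 1 CArG box, against 1.63% of all 32851 windows. The boxes are printed here, in capitals within 30 bases of the strand of the gene, because both a sarcomeric pair and a cytoplasmic actin hold them.
Actc1: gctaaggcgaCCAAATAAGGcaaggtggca
Acta1: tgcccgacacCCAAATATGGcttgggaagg
Actg1: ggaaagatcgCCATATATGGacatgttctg
They lie on the minus strand, at chr2:114052903-114052932 for Actc1, chr8:123894829-123894858 for Acta1 and chr11:120348566-120348595 for Actg1, and the boxes start 47, 73 and 90 bases before the gene start. Actc1 and Acta1 also held the letters TATAAA (13.6% of all windows), and Acta1, Acta2 and Tpm1 each held the letters CATTCC of an MCAT element (14.7%). The letters CANNTG of an E box, the site of the MyoD family, were in all 9 windows of the members and in 72.3% of all windows. The CArG box was searched only as CCWWWWWWGG (W for A or T), so boxes with another letter were not counted in any window. Both strands were searched, no other motif overlapped the CArG boxes, and a match describes the letters only.

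In the si-SCR samples the 3 highest members were all muscle actins. Acta1, the actin of adult skeletal muscle (chr8:123891769-123894751 in GRCm38, minus strand), had a mean of 3009 RPKM and ranked 9 among all 11642 rows. Acta2, the actin of vascular smooth muscle that differentiating myoblasts also express (chr19:34241090-34255590), followed at 2744 RPKM. Actc1, the cardiac actin that is also the early actin of embryonic and regenerating skeletal muscle (chr2:114047282-114053548), was at 2159 RPKM. The cytoplasmic actins Actb (chr5:142903115-142906754) and Actg1 (chr11:120345690-120348542) came next, with means of 1207 and 750.2 RPKM. Among the tropomyosins Tpm2 was highest at 747 RPKM, followed by Tpm1 at 382 RPKM, Tpm4 at 236 RPKM and Tpm3 at 21.6 RPKM. The enteric smooth muscle actin Actg2 was the lowest member at 16.4 RPKM. Only Actg1 and Tpm2 were neighbours in this order whose ranges overlapped.

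In the si-SMaRT samples the order differed at the top. Acta2 had the highest mean there, 2355 RPKM, and its range overlapped with that of Acta1, as did the range of Actb. Actc1 was at a mean of 1150.1 RPKM, and its range overlapped with that of Actg1, at a mean of 1064 RPKM. The order of tropomyosin means was the same as in si-SCR, with overlapping ranges of Tpm1 and Tpm4, and the range of Tpm3 overlapped with that of Actg2.

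**Figure D1:**
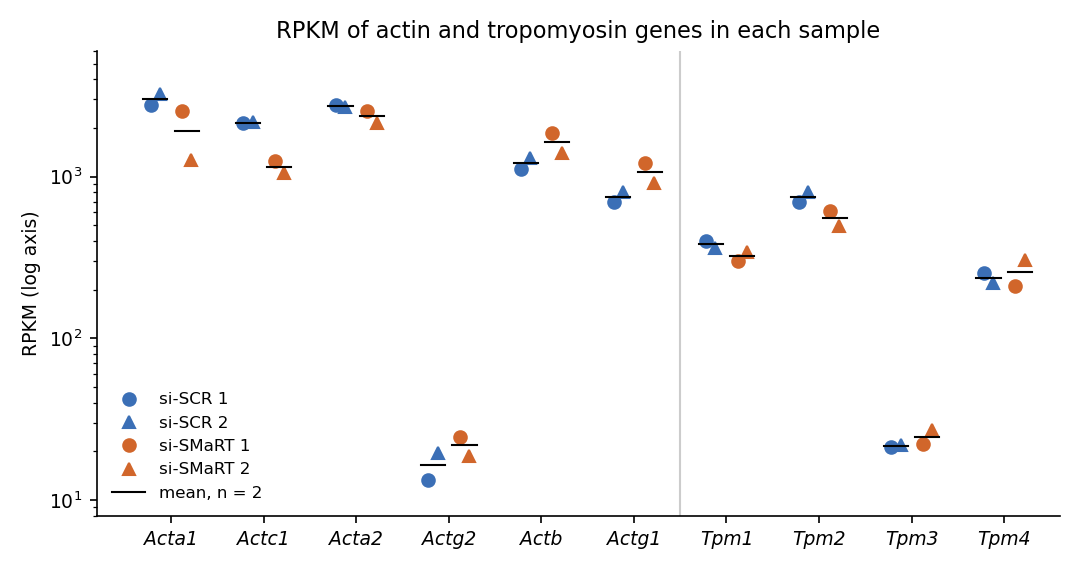
RPKM on a log axis for each actin gene (left of the grey line) and tropomyosin gene (right) in the 2 si-SCR samples (blue) and the 2 si-SMaRT samples (orange), with a black bar at the mean of each group. Actc1 lies at 2133 and 2186 RPKM in si-SCR and at 1242 and 1059 RPKM in si-SMaRT, and the si-SMaRT samples of Acta1 lie farthest apart, at 2553 and 1274 RPKM.

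These levels depend on the gene length used. The length behind the deposited value was 6485 bases for Tpm1, the sum of all its exons, whereas its 16 basic protein-coding transcripts have a median of 1642 bases. The corresponding lengths were 6085 and 2190 bases for Tpm3, 2679 and 1581 bases for Actb, and 1433 and 1446 bases for Acta1. With the transcript lengths Tpm1 reached 1509 RPKM in si-SCR, above Actg1 and Tpm2 at 1092 and 1035 RPKM, and Actb had the highest mean of the members in si-SMaRT, at 2758 RPKM. A gene has the same length in all samples, so the choice of length cancels in its difference between the groups. Whether the groups used transcripts of different length was not tested.

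The question put to these genes was whether the muscle and cytoskeletal isoforms differed between cells with and without lnc-SMaRT. Actc1 had the log2 fold change farthest from 0 among the members, though not after quantile normalization or without si-SMaRT 1. It was at 2133 RPKM in si-SCR 1 and 2186 RPKM in si-SCR 2, and at 1242 RPKM in si-SMaRT 1 and 1059 RPKM in si-SMaRT 2. The 2 samples of each group lay close together and the groups did not overlap. The log2 fold change was -0.91 ± 0.30 (SE, n = 2 per group, 95% interval -1.54 to -0.28) and an adjusted p of 0.258 in limma, above the threshold of 0.05. With the replicate numbers crossed as a block, Actc1 passed with an adjusted p of 0.0104 in limma, in a fit that called 4.39% of all genes. This alternative was added after the data were seen, and nothing in the labels pairs the samples in that way, so no conclusion is drawn from it.

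Acta1 was at 2778 and 3239.8 RPKM in si-SCR 1 and 2 and at 2553 and 1274 RPKM in si-SMaRT 1 and 2. Both si-SMaRT samples were below both si-SCR samples, but si-SMaRT 1 lay near the si-SCR samples and si-SMaRT 2 was at 0.499 times its level. The log2 fold change was -0.73 ± 0.35 (SE, adjusted p = 0.558, limma), with a 95% interval of -1.48 to 0.01. At 57.0% the exons of Acta1 hold more GC than those of 89.2% of the genes, and the 790 genes within 1 percentage point of it had a median log2 difference of -0.69 between si-SMaRT 2 and si-SMaRT 1, beside -1.003 for Acta1 itself. The part of GC content in the Acta1 value was not tested beyond removing the trend, which gave a log2 fold change of -0.56 with an adjusted p of 0.256.

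The smooth muscle actins had smaller fitted differences. Acta2 was at 2777 and 2710.4 RPKM in si-SCR and at 2556 and 2155 RPKM in si-SMaRT, without overlap, with a log2 fold change of -0.23 ± 0.31 (SE, adjusted p = 0.889, limma) that turned to 0.041 after quantile normalization. Actg2 was at 13.2 and 19.5 RPKM in si-SCR and at 24.7 and 18.8 RPKM in si-SMaRT, and the groups overlapped. These rested on 261 and 431 reads in si-SCR and 435 and 421 reads in si-SMaRT. The log2 fold change of Actg2 was 0.42 ± 0.29 (SE, adjusted p = 0.722, limma), with 0.14 without si-SCR 1 and 0.70 without si-SCR 2. Smooth muscle markers gave no common direction beside them: the 4 listed of 7, Smtn, Lmod1, Cnn1 and Synm, summed to 18.4 and 24.0 RPKM in si-SCR and to 24.9 and 13.4 RPKM in si-SMaRT.

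Both cytoplasmic actins were higher in each si-SMaRT sample than in either si-SCR sample. Actb, the beta-actin of the cell cortex and leading edge, was at 1117 and 1297 RPKM in si-SCR and at 1863 and 1392 RPKM in si-SMaRT, and its log2 fold change was 0.42 ± 0.30 (SE, adjusted p = 0.752, limma). Actg1, the gamma-actin of the cortex and stress fibres, was at 699 and 802 RPKM in si-SCR and at 1212 and 915 RPKM in si-SMaRT, and its log2 fold change was 0.49 ± 0.30 (SE, adjusted p = 0.662, limma). In both genes si-SMaRT 1 was the highest sample and si-SCR 1 the lowest, and without si-SMaRT 1 the log2 fold changes were 0.21 for Actb and 0.29 for Actg1. The Actg1 row is joined with Gm23419 and Mir6935. Of the 2401 windows of 100 bases along its exons, 71.7% have an exact copy elsewhere in the genome. Reads from these windows could match other loci as well. How the authors' counting treated such reads is not given, and this bears on each comparison of levels that includes Actg1. The same share was 0.900% for Actb, and no window of the other 4 actins had a copy.

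Tpm1 and Tpm2 encode the alpha and beta tropomyosins of muscle, with cytoskeletal forms made from the same genes by other promoters and splicing. Tpm1 (chr9:67022590-67049406, minus strand) was at 402 and 362 RPKM in si-SCR and at 301 and 341 RPKM in si-SMaRT, and its log2 fold change was -0.25 ± 0.27 (SE, adjusted p = 0.857, limma). Tpm2 (chr4:43514711-43523765, minus strand) was at 694 and 799.5 RPKM in si-SCR and at 617 and 496 RPKM in si-SMaRT, and its log2 fold change was -0.43 ± 0.29 (SE, adjusted p = 0.717, limma). Neither gene's groups overlapped, and the si-SMaRT samples were the lower ones. Per-gene values do not separate the muscle forms of a gene from its cytoskeletal forms.

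Tpm3, which encodes slow muscle and many cytoskeletal forms (chr3:90072649-90100902, plus strand), was at 21.4 and 21.9 RPKM in si-SCR and at 22.2 and 26.9 RPKM in si-SMaRT, and its log2 fold change was 0.17 ± 0.26 (SE, adjusted p = 0.899, limma), and 0.035 without si-SMaRT 2. Tpm4, a cytoskeletal tropomyosin (chr8:72134975-72153142, plus strand), was at 253 and 218 RPKM in si-SCR and at 211 and 307 RPKM in si-SMaRT, and the groups overlapped. Its log2 fold change was 0.11 ± 0.29 (SE, adjusted p = 0.946, limma), and without si-SMaRT 2 it was -0.16. The 2 si-SMaRT samples lay below and above both si-SCR samples for Tpm4, which at 46.1% has the lowest GC content of the members. Exact copies of 100-base windows were found for 27.6% of Tpm3 and 8.53% of Tpm4, and for none of Tpm1 and Tpm2.

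All 10 members passed the minimum mean of 0.5 RPKM, and none passed the adjusted threshold in limma, beside 56 of 11086 genes tested, or 0.505%. At an unadjusted p under 0.05, 1 member (Actc1) passed, against 9.09% of the genes tested, and voom on the recovered reads also called no member, with an adjusted p of 0.105 for Actc1. Both si-SMaRT samples lay above both si-SCR samples for 3 members (Actb, Actg1 and Tpm3), against 20.2% of the genes tested. They lay below for 5 members (Acta1, Actc1, Acta2, Tpm1 and Tpm2), against 20.4%. The median log2 fold change was -0.056 over the members and 0.020 over all genes tested.

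**Figure D2:**
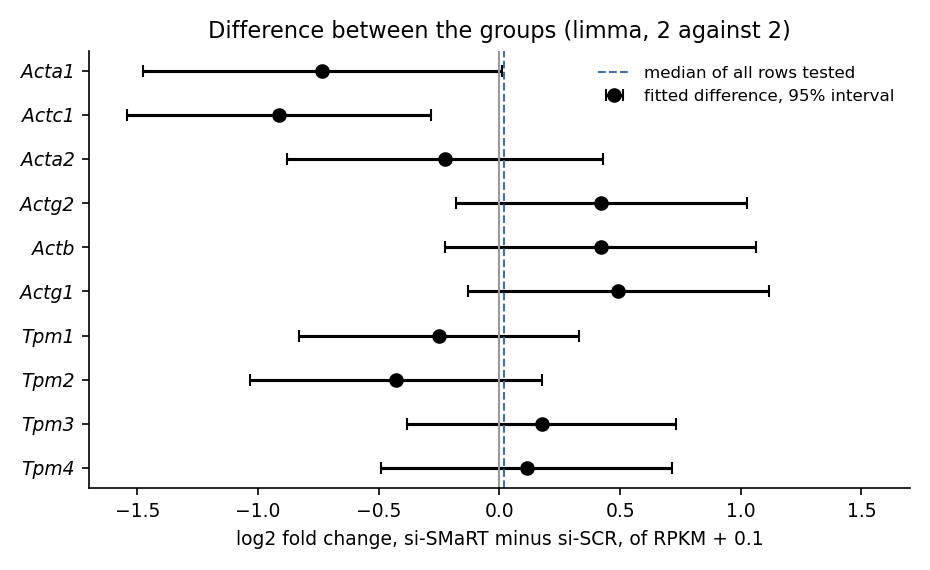
Fitted log2 fold change of each member, si-SMaRT minus si-SCR, as a point with its 95% interval from limma (2 samples against 2), and the median of all genes tested as a dashed line. The interval of Actc1, from -1.54 to -0.28, lies below 0, and that of Acta1 ends at 0.01.

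Leaving out a sample changed which members passed. Without si-SMaRT 1, Acta1 and Actc1 passed the threshold with log2 fold changes of -1.24 and -1.03 (adjusted p = 0.0127 and 0.0268, limma), in a fit that called 26.2% of all genes. Without si-SMaRT 2, Actg2 alone passed, with a log2 fold change of 0.62 (adjusted p = 0.0377, limma) in a fit that called 8.49% of all genes, and that of Acta1 was -0.23. In both fits the remaining si-SMaRT sample was assumed to vary like the si-SCR samples.

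The actin mixture can be read within each sample, where a scaling of the whole library cancels. Sarcomeric actin, Acta1 with Actc1, made up 51.6% and 52.9% of the summed actin RPKM in si-SCR 1 and 2, and 40.2% and 34.2% in si-SMaRT 1 and 2. The means were 52.3% ± 0.924 and 37.2% ± 4.19 (SD, n = 2), a difference of -15.1 percentage points, and both si-SMaRT samples were below both si-SCR samples. The exact two-sided permutation p was 0.333, the smallest that 2 against 2 allows, so this design cannot pass the threshold. The cytoplasmic share was higher in both si-SMaRT samples (exact permutation p = 0.333 as well), with 19.1% and 20.5% in si-SCR and 32.5% and 33.9% in si-SMaRT. The smooth muscle share overlapped between the groups, at 29.3% and 26.6% against 27.3% and 31.9%.

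Expressed as a ratio, there was 2.70 and 2.58 times as much sarcomeric as cytoplasmic actin RPKM in the si-SCR samples, and 1.23 and 1.01 times as much in the si-SMaRT samples. Between the 2 cytoplasmic genes the ratio stayed within a narrow range, with 1.60 and 1.62 times as much Actb as Actg1 in si-SCR and 1.54 and 1.52 times in si-SMaRT. Between the 2 sarcomeric genes it was less even. Acta1 over Actc1 was 1.30 and 1.48 in si-SCR and 2.06 and 1.203 in si-SMaRT, so that the si-SMaRT samples lay on either side of the controls. Summed actin RPKM was 9517 and 10254 in si-SCR and 9450.3 and 6813 in si-SMaRT, with si-SCR 1 and si-SMaRT 1 nearly equal.

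At the transcript lengths given above, the sarcomeric share was 48.8% and 49.3% in si-SCR and 35.1% and 30.2% in si-SMaRT, and the cytoplasmic share became the larger one in the si-SMaRT samples, at 44.4% and 46.0%. Beside the sarcomeric share, the 7 markers of differentiating skeletal muscle cells (Myod1, Myog, Des, Ckm, Myh3, Tnnt1 and Chrna1) summed to 4470.1 and 4671 RPKM in si-SCR and to 3360.1 and 2444 RPKM in si-SMaRT. All but Myod1 were lower in both si-SMaRT samples than in either si-SCR sample, as were 20.4% of all genes tested. Myod1 was at 54.8 and 70.1 RPKM in si-SCR and at 95.9 and 57.7 RPKM in si-SMaRT, with overlap. In these bulk samples fewer differentiated cells and less of the RNA per cell cannot be told apart.

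The tropomyosin mixture was less clear. Tpm1 and Tpm2 together made up 80.0% and 82.9% of the summed tropomyosin RPKM in si-SCR and 79.8% and 71.5% in si-SMaRT, a difference of -5.77 percentage points between the means (exact permutation p = 0.333, the smallest possible). The value of si-SMaRT 1 lay close to si-SCR 1, and the difference was -1.65 points without si-SMaRT 2 and -9.90 points without si-SMaRT 1. It was -3.42 points at the transcript lengths and -3.57 points with the GC trend removed. Tpm4 took 18.5% and 15.6% in si-SCR and 18.3% and 26.2% in si-SMaRT. Summed tropomyosin RPKM was lower in si-SMaRT, at 1151 and 1172 against 1371 and 1401, and its 2 samples lay closer together there than in their actin sums.

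**Figure D3:**
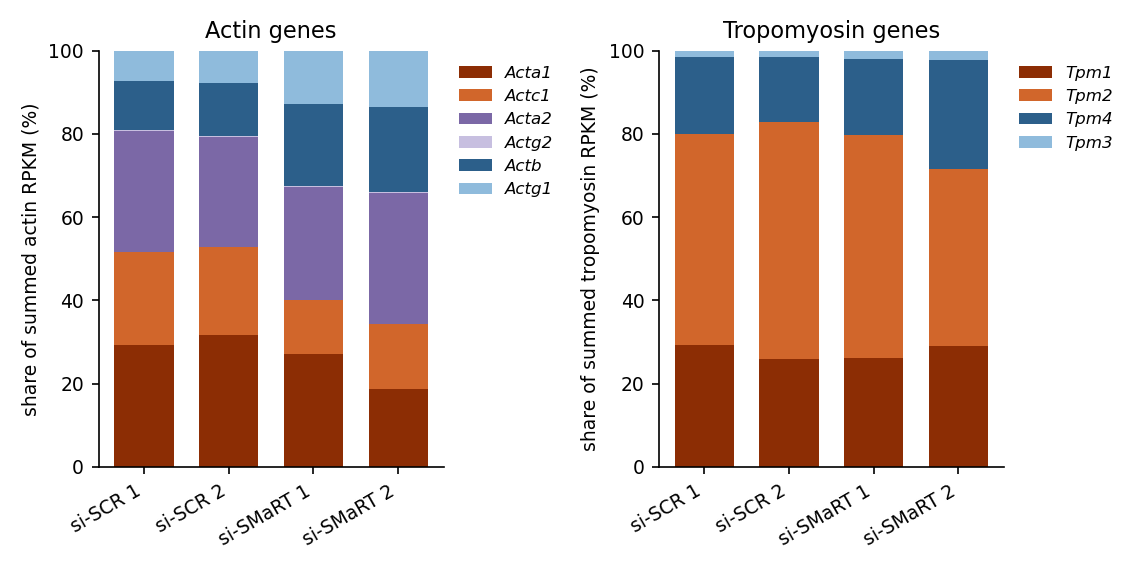
Stacked bars of each gene's share of the summed actin RPKM (left) and tropomyosin RPKM (right), in percent, for the 4 samples. Sarcomeric actin (Acta1 and Actc1, brown and orange) takes 51.6% and 52.9% in si-SCR and 40.2% and 34.2% in si-SMaRT, and the tropomyosin bars differ mainly in si-SMaRT 2.

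Members differed between the 2 si-SMaRT samples, partly unlike the genes of like GC content. The log2 difference, si-SMaRT 2 minus si-SMaRT 1, was above 0 for Tpm4 (0.54), Tpm3 (0.28) and Tpm1 (0.18), whose GC contents were 46.1%, 49.2% and 49.1%. The medians of genes within 1 percentage point of their GC content were 0.22, -0.033 and -0.023. It was below 0 for the other 7, and was -0.31 for Tpm2 and -0.41 for Actg1, at 57.3% and 55.4%. Acta2, at 48.6%, was at -0.25, whereas genes of like GC content had a median of 0.016. For Tpm2 the genes of like GC content had a median of -0.71, farther from 0 than Tpm2 itself. Removing the GC trend left every member on its side of 0, with log2 fold changes of -0.83 for Actc1 (adjusted p = 0.0866, limma), 0.64 for Actg1, 0.49 for Actb and -0.25 for Tpm2, and called no member, while 559 of 10552 genes were then called.

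**Figure D4:**
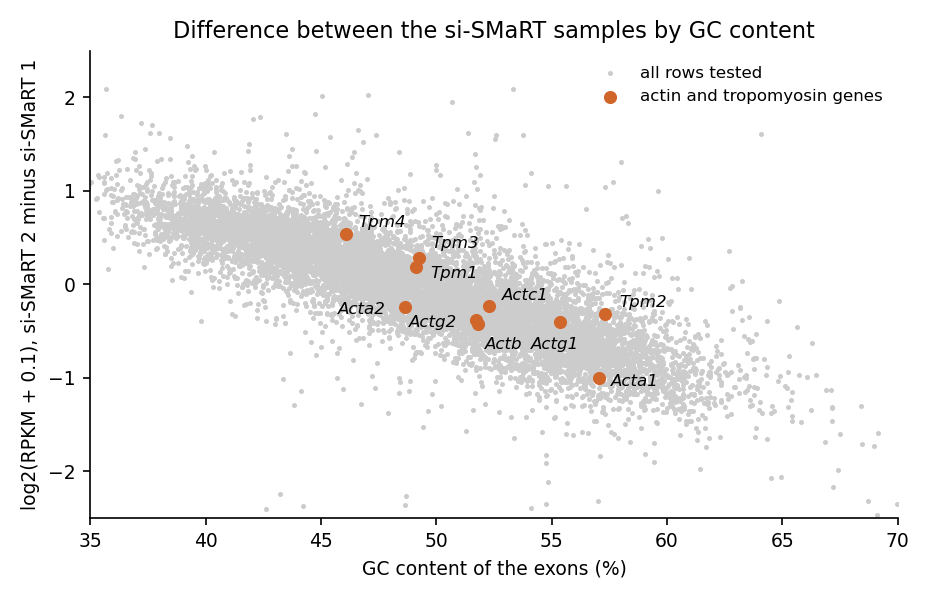
Log2(RPKM + 0.1) of si-SMaRT 2 minus si-SMaRT 1 against the GC content of the exons in percent, for the 10552 genes tested that had a GC value (grey) and the members (orange), with 44 genes outside the axes. The grey cloud falls from left to right, Tpm4 at 46.1% lies at 0.54 and Acta1 at 57.0% lies at -1.003.

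Genes whose profile over the 4 samples was most like that of a member were sought among 11077 rows, the member's own included. The measure was the root mean square distance of their centred log2(RPKM + 0.1) values. Within the members the closest pair was Actb and Actg1, 0.037 apart, whereas Acta1 and Actc1 were 0.295 apart. Outside them, Acbd4 (0.0090) and Gnb5 (0.020) were nearest to Acta1, and Grtp1 (0.032) and Pgm5 (0.039) to Actc1. Actb had Tcof1 (0.0052) and Vmac (0.011), and Actg1 had Jdp2 (0.020) and Dynll2 (0.021). Tpm1 was nearest to Nars (0.010) and Rpl9 (0.014), and Tpm4 to Naca (0.0094) and Nol11 (0.0099). With 4 samples, close profiles are easily found among many genes, and these distances are descriptions only.

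Actin partners were taken as 5 lists with 89 genes, of which 80 were tested, and 1 of them passed the threshold, against 0.505% of all genes tested. This was Cap2, a cyclase-associated protein of striated muscle that recycles actin monomers. It was at 19.6 and 20.3 RPKM in si-SCR and at 7.22 and 7.82 RPKM in si-SMaRT, so its groups lay far apart, and it fell by 1.40 ± 0.26 on the log2 scale (SE, adjusted p = 0.0232, limma). Without si-SCR 1 or si-SCR 2 the difference was -1.42 or -1.37, and the call was lost (adjusted p = 0.895 or 0.944, limma). In the list of monomer binding and turnover, with 17 of 18 genes tested, the median log2 fold change was -0.063, and the highest was Dstn, a depolymerizing factor, at 0.50 (adjusted p = 0.656, limma).

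Of the proteins at the filament ends and cross-links of the sarcomere, 13 of 17 were tested, and none passed in limma. At an unadjusted p under 0.05 in limma 2 passed, against 9.09% of all genes tested. In this list 10 had a log2 fold change below 0, and the median was -0.15, beside 0.020 over all genes tested. Lmod3, a leiomodin that nucleates thin filaments, was lowest at -0.73, with 121 and 116 RPKM in si-SCR and 63.5 and 79.7 RPKM in si-SMaRT (adjusted p = 0.332, limma). Xirp1, which binds and cross-links actin, was highest at 0.39, its groups overlapped, and without si-SCR 1 it was at -0.0051. Of the folding machinery, the CCT chaperonin, prefoldin and the actin methyltransferase Setd3, all 15 genes were tested and none passed (none at an unadjusted p under 0.05 either). The log2 fold changes of 13 of them were below 0, with a median of -0.17, beside 0.020 over all genes tested. They ranged from -0.36 (Pfdn6) to 0.22 (Pfdn4), and Pfdn4 was at -0.34 without si-SMaRT 2.

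The Arp2/3 complex and formins, which start new filaments, had 16 of 19 genes tested, none past either threshold in limma, and a median of 0.077, from -0.73 for Fmnl1 to 0.49 for Fmnl2. SRF, its cofactors and cytoskeletal target genes had 19 of 20 genes tested, none past the adjusted threshold in limma. At an unadjusted p under 0.05 in limma 2 passed, against 9.09% of all genes tested. Of the log2 fold changes 14 were above 0, with a median of 0.16, beside 0.020 over all genes tested. Actn1, the non-muscle alpha-actinin, was highest at 0.63, with 25.4 and 33.7 RPKM in si-SCR and 49.1 and 41.8 RPKM in si-SMaRT (adjusted p = 0.472, limma). Cnn1, a calponin of smooth muscle, was lowest at -0.35. Srf itself was at 15.3 and 18.8 RPKM in si-SCR and at 25.1 and 12.7 RPKM in si-SMaRT, on both sides of the controls. Over all 5 lists the number of calls was 17 of 80 without si-SMaRT 1, where 26.2% of all genes were called, and 8 of 80 without si-SMaRT 2, where 8.49% were called. It was 0 without si-SCR 1 or si-SCR 2, where 0.216% and 0.271% of all genes were called. Voom called Cap2 alone.

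**Figure D5:**
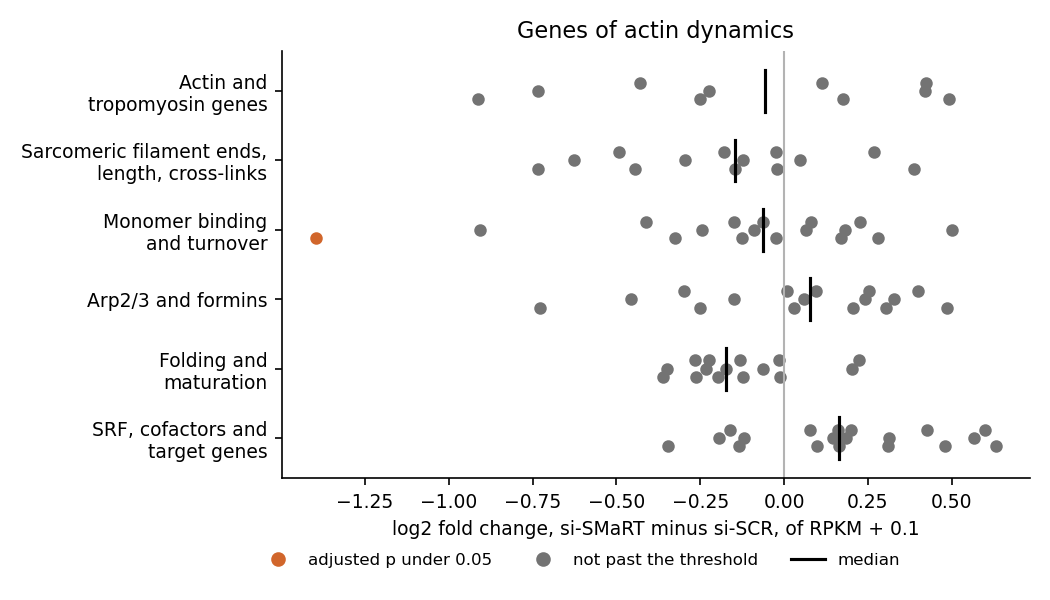
Log2 fold changes, si-SMaRT minus si-SCR, of the members and of the genes in 5 lists of actin partners, 1 point per gene, with a black bar at the median of each list. Cap2 at -1.40 is the only orange point, past the adjusted threshold, and the medians of the lists lie between -0.17 and 0.16.

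Of 345 peaks in the deposited lnc-SMaRT list, 2 overlapped an exon of a member, as did 1 of 336 in the LacZ list, and all of them were in Tpm1. The interval chr9:67032801-67033000 was in both lists, with a p of 0.000164 for lnc-SMaRT and 0.00278 for LacZ, and 64 of its bases were exonic, coding in 17 transcripts and in the UTR of 1 other. The interval chr9:67035801-67036000 was in the lnc-SMaRT list only, with a p of 4.35e-05, and 6 of its bases were exonic, all coding in 17 transcripts, with the rest in the intron. At a minimum overlap of 50 bases only the interval shared with LacZ was left. No peak of either list lay on an exon of an actin gene or of Tpm2, Tpm3 or Tpm4.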

How the data were processed

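The authors trimmed paired reads with Trimmomatic, used Bowtie 2 to discard those of rRNA and tRNA, mapped what remained on GRCm38 with TopHat2, counted reads on Ensembl 77 genes with htseq-count, removed genes of low CPM and applied TMM. The authors computed the deposited RPKM with edgeR. The authors called the peaks with Piranha in bins of 200 bases, and each deposited peak carries its p-value. Per the methods, LacZ peaks were called against the input and lnc-SMaRT peaks against the input and, separately, against LacZ. Which lnc-SMaRT call the list holds is not given in the sources used here.

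Differences were tested with limma 3.58.1 in R 4.3.3, with a trended prior, on log2(RPKM + 0.1). Rows needed a mean of 0.5 RPKM or more, and p-values were adjusted by the Benjamini-Hochberg method (threshold 0.05). Fold changes on this scale understate the change of low genes. Shares were compared by exact permutation. Reads were recovered as whole numbers for 11642 of 11642 rows (tolerance 0.001). The length they imply equals that of GENCODE M21 for 6391 rows. Elsewhere, as for Acta1, Acta2 and Actg2, the smallest factor that gave a whole length was used, without reference to GENCODE. For Acta2 this gave 1781 bases, beside 2196 bases in GENCODE. The reads given for such rows could be too low by a whole factor. That bears on the sums of reads, on voom and on the RPKM of these genes at the transcript lengths. GC content and exons came from GENCODE M21, promoters from RefSeq. Other steps ran in Python 3.11.15 (scipy 1.17.1, pandas 2.3.3, numpy 2.4.6).

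The named genes were the members, lnc-SMaRT, for each list the called genes and the highest and lowest, and the 2 nearest profiles of 6 members. Srf was named after its values were seen. Members and lists were chosen with earlier results of these data known. The fit was also run on simulated data without a GC trend, so that run does not bear on the GC difference between the si-SMaRT samples.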

Additional observations from a re-analysis of the deposited data

How the results depend on the processing

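Over 14 alternatives for each of the 10 members (other pseudocounts, filters and prior, quantile normalization, the replicate number as a block, GC trend removal, voom on recovered reads, a crossed block and each sample left out), 134 of 140 log2 fold changes kept their direction and side of the threshold, 4 newly passed it and 2 changed direction. Acta2 was at 0.041 after quantile normalization, and Tpm4 at -0.16 to 0.38 without 1 sample at a time, with the lowest value without si-SMaRT replicate 2. Without 1 sample at a time, 0 to 2 members and 0 to 17 partner genes were called. In those fits Xirp1 was at -0.0051 (without si-SCR replicate 1) to 0.78 and Pfdn4 at -0.34 (without si-SMaRT replicate 2) to 0.78. With the GC trend removed 4 of 80 partner genes were called (Actn1, Cap2, Lmod3 and Twf2), beside 5.30% of all genes. Leaving out samples moved Acta2 between -0.35 and -0.10, Tpm1 between -0.34 and -0.16, Tpm2 between -0.58 and -0.27 and Tpm3 between 0.035 and 0.31. Quantile normalization moved Actc1 to -0.51, Tpm2 to -0.20, Tpm1 to -0.050, Actb to 0.66, Actg1 to 0.72 and Tpm4 to 0.30, and Acta1 to -0.56.

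The replicate numbers are shared by the groups, but nothing in the labels ties them to a batch. The paper's wording, 2 independent populations for both treatments, leaves a pairing by number possible. With 2 pairs the deviations of same-numbered samples correlated at -0.362 across 11086 genes. With the replicate number as a block 0 members were called, 1 partner gene and 96 genes in all. Actc1 had an adjusted p of 0.554 in that limma fit. A crossed pairing, added after the data were seen, called 1 member (Actc1), 2 partner genes and 487 genes in all.

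The sarcomeric share differed by -19.8 percentage points without Acta2 and Actg2 in the sum, and by -18.0 to -12.1 points in the other alternatives. At an overlap of 50 bases 1 lnc-SMaRT peak was left on members. The number of genes called in all was 37 after quantile normalization, 108 with voom, and 24 to 2908 without 1 sample at a time. The cause of these changes was not tested. Quantile normalization and GC removal each moved the median over all genes by less than 0.01 on the log2 scale. That median does not describe the members, whose log2 fold changes all rose with quantile normalization. Actc1 went from -0.91 to -0.51 and Actb from 0.42 to 0.66. The knockdown of lnc-SMaRT passed the threshold in each alternative, at -2.55 to -2.11. Counting error is largest for Actg2, with 261 to 435 reads per sample, and with 2 samples per group the spread between samples sets the precision of the rest.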
